A study of Mus musculus with 4 samples.

Results

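The genes described here are the fibroblast growth factor (FGF) ligands, their receptors and co-receptors, the adaptors that join the receptors to Ras, and the genes that answer to or restrain that signal, measured by RNA sequencing in mouse bone marrow mesenchymal stem cells. Members were taken by gene symbol: every numbered Fgf gene, Fgfr1 to Fgfr4, Fgfrl1, the Sprouty and Spred genes, Frs2, Frs3, Kl, Klb, Dusp6, Etv4, Etv5, Fgfbp1 and Fgfbp3. The rule found 43 of the 54532 genes in the table. They comprised 22 ligands, 5 receptors, 4 co-receptors and ligand carriers, 2 adaptors and 10 feedback and response genes. Every numbered Fgf gene is counted here as a ligand, even Fgf11, Fgf12, Fgf13 and Fgf14, whose proteins stay inside the cell.

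The study set 2 control mice, which carried floxed Rheb alleles (RhebFL/FL), against 2 littermates of genotype Ucp1-cre; rhebFL/FL, labelled as lacking Rheb in brown adipocytes. All were C57BL/6J mice 1 month old, given as male. Both groups carry the floxed alleles, and the controls lack the Cre. The Ucp1 promoter drives the Cre in brown adipocytes, whereas the cells sequenced came from marrow.

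FGF ligands bind receptor tyrosine kinases at the cell surface together with heparan sulfate, and the docking protein Frs2 passes the signal to Ras and the kinase ERK. ERK raises transcription of its own inhibitors, among them the Sprouty genes and the ERK phosphatase gene Dusp6, and of the ETS factors Etv4 and Etv5. In the skeleton, Fgfr1 and Fgfr2 act in stromal and osteoblast-lineage cells and Fgfr3 restrains growth plate chondrocytes. FGF2 is a mitogen for cultured marrow stromal cells.

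Each library held between 17425669 and 19001878 counts. Rheb was not lower in the libraries labelled knockout, so that group is called knockout-labelled. Rheb had 89.7 and 81.5 CPM in controls against 129.2 and 121.3 CPM in the others (log2 fold change 0.55, SE 0.19). CPM is the depth-scaled read count after TMM, a scaling that equalises the bulk of genes between libraries. Ucp1 had 1 count in knockout-labelled replicate 2 and 0 in each other library, so Rheb in this RNA cannot check the label. Both replicates 1 carried Xist reads (19502 and 31103 counts) and both replicates 2 carried Ddx3y reads (1945 and 1631 counts), although all animals were given as male. Values within each replicate number are therefore given beside group values. Of 11 marrow stromal markers all 11 had reads, and their summed level was 1650 and 2474 CPM among controls against 2037 and 1651 CPM in the knockout-labelled libraries. All 6 macrophage markers had reads too, with sums of 10127 and 6763 CPM among controls against 7792 and 9441 CPM in the knockout-labelled libraries. Lyz2 made up most of those sums. The 6 B cell markers had sums of 664.4 and 237.8 CPM among controls against 116.4 and 49.7 CPM in the knockout-labelled libraries. Most of this was Ighm and Igkc. All 6 had negative log2 fold changes, but that of Cd79b was only -0.12. Markers of several cell types were thus present, and in such bulk RNA fewer cells of a type and less RNA per cell cannot be told apart.

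No FGF gene passed the test of knockout-labelled against control libraries. Of the 43 members, 23 had enough reads to be tested, and edgeR's quasi-likelihood test called 0 of them at an adjusted p of 0.05, as it called 0% of the 14963 genes tested. The smallest unadjusted p-values belonged to the receptor genes Fgfr2 and Fgfr3, the 2 of 23 members under 0.05, where 1.86% of all tested genes were. DESeq2 and limma-voom also called 0 of the 23, against 0.154% and 0% of all genes, and by DESeq2 2 members had an unadjusted p under 0.05, as did 1.56% of all genes. Values were lower in knockout-labelled libraries for 10 members and higher for 13, where 51.2% and 48.8% of all tested genes were. The median log2 fold change was 0.03 over the members and -0.01 over all tested genes. The receptors and the feedback genes lay apart from each other: all 4 tested receptors had lower values and 9 of 10 feedback genes had higher ones.

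**Figure D1:**
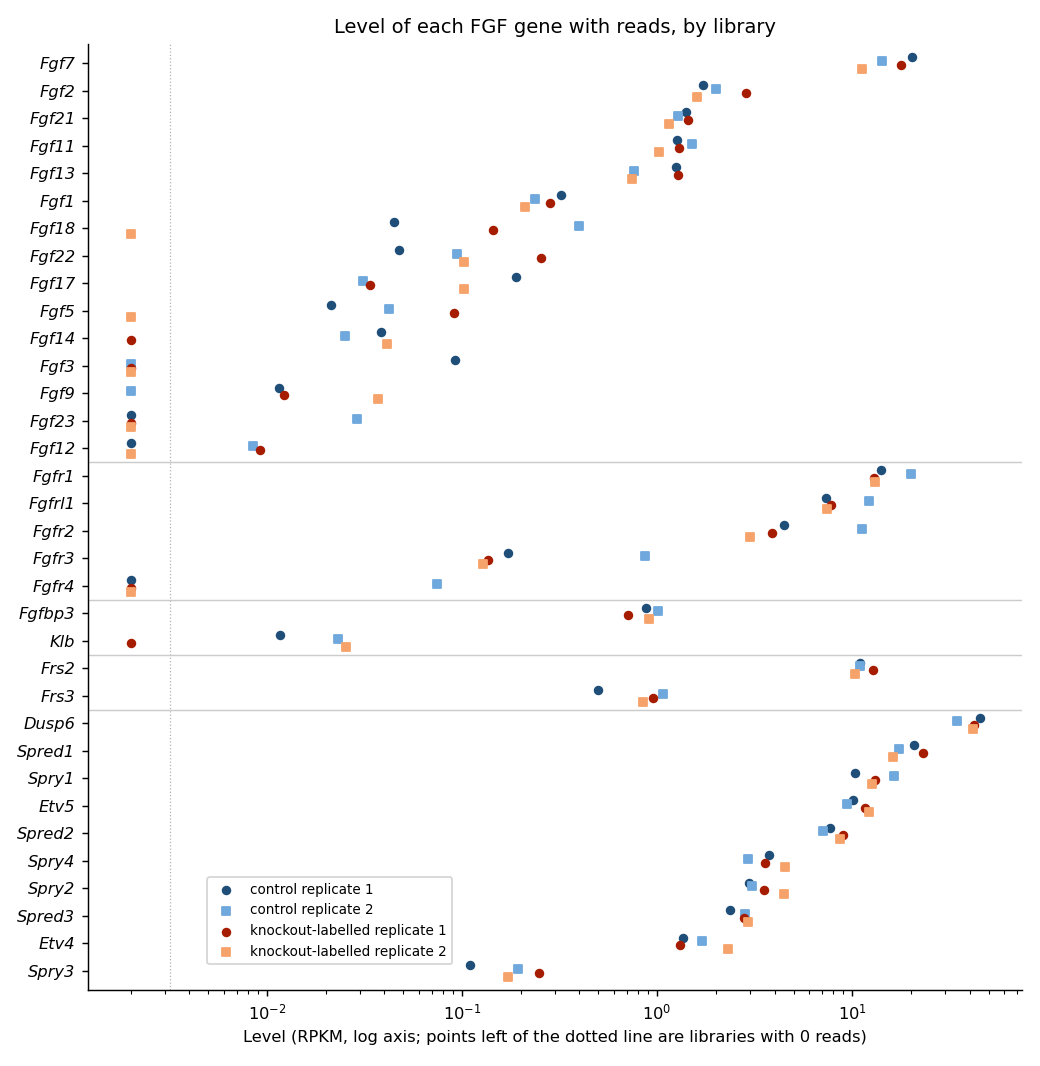
Level of the 34 FGF genes with any read, as RPKM (CPM per kilobase of exon, log axis), in each of the 4 libraries; grey lines part ligands, receptors, co-receptors and carriers, adaptors, and feedback genes. Fgf7 led the ligands, Fgfr1 the receptors and Dusp6 the feedback genes in every library, and control replicate 2 stood to the right in all 5 receptor rows.

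Among the ligands, Fgf7, the keratinocyte growth factor that mesenchymal cells make for neighbouring epithelia, was the leading transcript. It held 76.1 and 68.8% of the summed ligand level (RPKM, CPM per kilobase of exon) in controls and 69.7 and 69.0% in the knockout-labelled libraries. Its level was 66.0 and 46.0 CPM among controls against 57.5 and 36.3 CPM in the knockout-labelled libraries. The groups overlapped, and replicate 2 was the lower library in both. The log2 fold change of Fgf7 was -0.26 (SE 0.29, edgeR adjusted p = 1), with log2 ratios of -0.20 within replicate 1 and -0.34 within replicate 2.

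Fgf2, the basic FGF used to expand marrow stromal cultures, had 11.6 and 13.6 CPM among controls against 19.3 and 10.8 CPM in the knockout-labelled libraries. The knockout-labelled group held both the highest and the lowest library. Between groups the log2 fold change was 0.26 (SE 0.33, edgeR adjusted p = 1), 0.72 within replicate 1 and -0.32 within replicate 2. Nudt6, transcribed from the opposite strand, shares 640 bases of exon with Fgf2. It had 20 to 37 counts a library, and Fgf2 had 188 to 338. Whether the shared bases affected the Fgf2 counts was not tested.

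The FGF homologous factors, which stay inside the cell and bind sodium channels, were represented by Fgf11 and Fgf13. Fgf11 had 3.84 and 4.58 CPM among controls against 3.94 and 3.11 CPM in the knockout-labelled libraries, with overlap between groups (log2 fold change -0.26, SE 0.36). Fgf13, on the X chromosome, had 5.02 and 3.05 CPM among controls against 5.14 and 2.996 CPM in the knockout-labelled libraries. The values of Fgf13 followed the replicate number: both replicates 1 were near 5 CPM and both replicates 2 near 3 CPM, and the log2 fold change between groups was 0.01 (SE 0.43, edgeR adjusted p = 1). The remaining homologous factors Fgf12 and Fgf14 had 0 to 3 counts a library.

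Of the endocrine FGFs, which act at a distance through the Klotho proteins, Fgf21 alone was tested. It had 1.33 and 1.21 CPM among controls against 1.37 and 1.09 CPM in the knockout-labelled libraries. Its groups overlapped, at 19 to 25 counts a library (log2 fold change -0.05, SE 0.49, edgeR adjusted p = 1). Fgf23, the phosphate-regulating hormone of osteocytes, had 1 count in control replicate 2 and 0 in the other libraries, and Fgf15 had 0 in all 4. At these depths 0 counts is compatible with as many as 3, equal to 0.158 to 0.173 CPM, if counting error alone is considered.

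Fgf1, a ligand of all FGF receptors, had 17 to 28 counts a library and a log2 fold change of -0.18 (SE 0.51, edgeR adjusted p = 1). Each of the 6 tested ligands overlapped between groups. Of all tested genes, 11.3% did not overlap with the knockout-labelled libraries lower, and 10.8% with them higher. A further 9 ligands had reads but too few to test, with at most 10 counts in any library. Among them Fgf18, a ligand of chondrocyte and osteoblast receptors, had 1 and 9 counts in controls and 3 and 0 in the knockout-labelled libraries. Fgf22 had 2 and 4 counts in controls and 10 and 4 in the others. Fgf17 had 1 to 6 counts a library, Fgf5 0 to 4, and Fgf9 0 to 3. The remaining 7, Fgf4, Fgf6, Fgf8, Fgf10, Fgf15, Fgf16 and Fgf20, had 0 counts in all 4 libraries. The silent ligands included Fgf4 and Fgf15, which lie 31.3 kb apart on chromosome 7, and their neighbour Fgf3, 2.93 kb from Fgf4, had 4 counts in control replicate 1 and 0 elsewhere.

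The receptors gave the widest differences, and those differences were carried by control replicate 2. Fgfr1 was the most abundant receptor transcript per length, with 45.1 to 55.5% of the summed receptor level (RPKM) in each library. It was followed by Fgfrl1, a receptor-like protein without a kinase domain, with 27.6 to 31.6%, and by Fgfr2, with 12.6 to 25.2%. Fgfr3 held at most 1.96%, and Fgfr4 had reads in control replicate 2 alone.

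The 3 receptor genes that stood at least 1.5 times above every other library in control replicate 2 were Fgfr2, Fgfr3 and Fgfrl1, against 3.9% of all tested genes, a limit chosen after the values were seen. Their RefSeq promoter windows (GRCm38.p6, 250 bases before to 50 after the start) are shown because these genes shared that pattern, with matches to GGGCGG, the GC box bound by SP factors, on either strand in capitals. The windows are chr7:130266759-130267058 (minus strand) for Fgfr2, chr5:33721474-33721773 (plus strand) for Fgfr3, and chr5:108693979-108694278 (plus strand) for Fgfrl1.
Fgfr2: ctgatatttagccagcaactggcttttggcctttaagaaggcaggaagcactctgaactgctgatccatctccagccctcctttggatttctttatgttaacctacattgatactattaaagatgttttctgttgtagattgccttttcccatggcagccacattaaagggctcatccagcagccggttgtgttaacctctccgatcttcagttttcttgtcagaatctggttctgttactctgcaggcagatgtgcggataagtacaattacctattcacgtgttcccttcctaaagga
Fgfr3: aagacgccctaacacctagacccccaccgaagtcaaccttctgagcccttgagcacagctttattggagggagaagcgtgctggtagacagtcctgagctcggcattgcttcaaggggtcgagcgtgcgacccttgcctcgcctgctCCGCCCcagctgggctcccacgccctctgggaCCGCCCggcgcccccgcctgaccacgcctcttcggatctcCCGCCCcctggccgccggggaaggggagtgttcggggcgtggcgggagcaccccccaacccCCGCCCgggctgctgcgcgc
Fgfrl1: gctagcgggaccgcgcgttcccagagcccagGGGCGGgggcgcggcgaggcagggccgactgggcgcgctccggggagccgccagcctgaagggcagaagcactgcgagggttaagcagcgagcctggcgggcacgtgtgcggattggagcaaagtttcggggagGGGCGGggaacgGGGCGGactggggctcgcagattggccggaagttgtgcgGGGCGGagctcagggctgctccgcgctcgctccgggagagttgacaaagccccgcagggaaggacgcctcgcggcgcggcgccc
For each gene the window nearest the deposited gene start was kept. Its own start lay 2856542 bases inside the deposited one for Fgfr2, 1847 for Fgfrl1 and 50 for Fgfr3. Which start the counted reads came from was not tested. The windows of Fgfr3 and Fgfrl1 each held 4 GC boxes and had a GC content of 69.7 and 73.7%. That of Fgfr2 held 0 boxes and had 43.7%. The median GC content over all 32851 windows was 52.7%, and 35.7% of them held a GC box. The RUNX letters TGTGGT, searched on both strands, were in 0 of these 3 windows and in 16.8% of all windows. The ETS letters CCGGAA were in the window of Fgfrl1 alone of the 3 and in 14.9% of all windows. A window was found for 33 of the 43 members and for 18 of the 23 tested. Of those 18, 12 held a GC box, 2 the RUNX letters and 3 the ETS letters.

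Fgfr2 (ENSMUSG00000030849; chromosome 7, minus strand, mm10), the receptor of osteoprogenitors that is mutated in human craniosynostosis, had 45.9 and 115.4 CPM among controls against 40.3 and 30.8 CPM in the knockout-labelled libraries. Both knockout-labelled libraries lay below both controls, but control replicate 1 was close to them and control replicate 2 was 2.51 times the next highest library. The log2 fold change was -1.18 (SE 0.40, edgeR unadjusted p = 0.0187 and adjusted p = 1, DESeq2 adjusted p = 0.549). Replicate 1 alone gave a log2 ratio of -0.19 and replicate 2 alone -1.90. With control replicate 2 left out the change was -0.36. Leaving out control replicate 1, so that control replicate 2 was the lone control, gave -1.70. As deposited, the gene runs from 130162451 to 133123350 and shares 314 exonic bases with Ctbp2, whose counts were 1071 and 1155 in controls and 1164 and 1130 in the knockout-labelled libraries.

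Fgfr3 (ENSMUSG00000054252; chromosome 5, 33721674 to 33737068, plus strand), the chondrocyte receptor whose activation causes achondroplasia, had 23 and 118 counts in controls and 17 and 16 in the knockout-labelled libraries. In CPM these were 1.23 and 6.21 against 0.971 and 0.922. The groups did not overlap, yet 3 libraries were alike and control replicate 2 was 5.06 times the next highest. The log2 fold change was -1.97 (SE 0.74, edgeR unadjusted p = 0.0290 and adjusted p = 1), with -0.31 in replicate 1 alone and -2.63 in replicate 2 alone. Leaving out control replicate 2 gave -0.36. Leaving out control replicate 1, so that control replicate 2 was the lone control, gave -2.71.

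Fgfr1 (ENSMUSG00000031565; chromosome 8, 25513654 to 25575718, plus strand), the main receptor of mesenchymal cells, had 138.0 and 197.3 CPM among controls against 127.0 and 129.5 CPM in the knockout-labelled libraries. Its groups did not overlap. The log2 fold change was -0.39 (SE 0.23, edgeR adjusted p = 1), -0.12 within replicate 1 and -0.61 within replicate 2. Leaving out control replicate 2 gave -0.10 and leaving out control replicate 1 gave -0.62. Fgfrl1 had 20.4 and 34.02 CPM among controls against 21.7 and 20.6 CPM in the knockout-labelled libraries, so its groups overlapped. Its log2 fold change was -0.37 (SE 0.29, edgeR adjusted p = 1), 0.09 within replicate 1 and -0.72 within replicate 2, and it turned to 0.06 without control replicate 2. Fgfr4 had 5 counts in control replicate 2 and 0 in each other library.

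Control replicate 2 was thus the highest library for all 4 tested receptors, as it was for 27.2% of all tested genes. Between groups, 3 of 4 receptors did not overlap with the knockout-labelled libraries lower, as did 11.3% of all tested genes. The median log2 ratio of control replicate 2 to control replicate 1 was 1.03 over the 4 receptors, while that of knockout-labelled replicate 2 to replicate 1 was -0.07. By these medians the 2 controls differed from each other by more than the knockout-labelled libraries did. Within both groups the replicates also differed in Xist and Ddx3y reads.

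**Figure D2:**
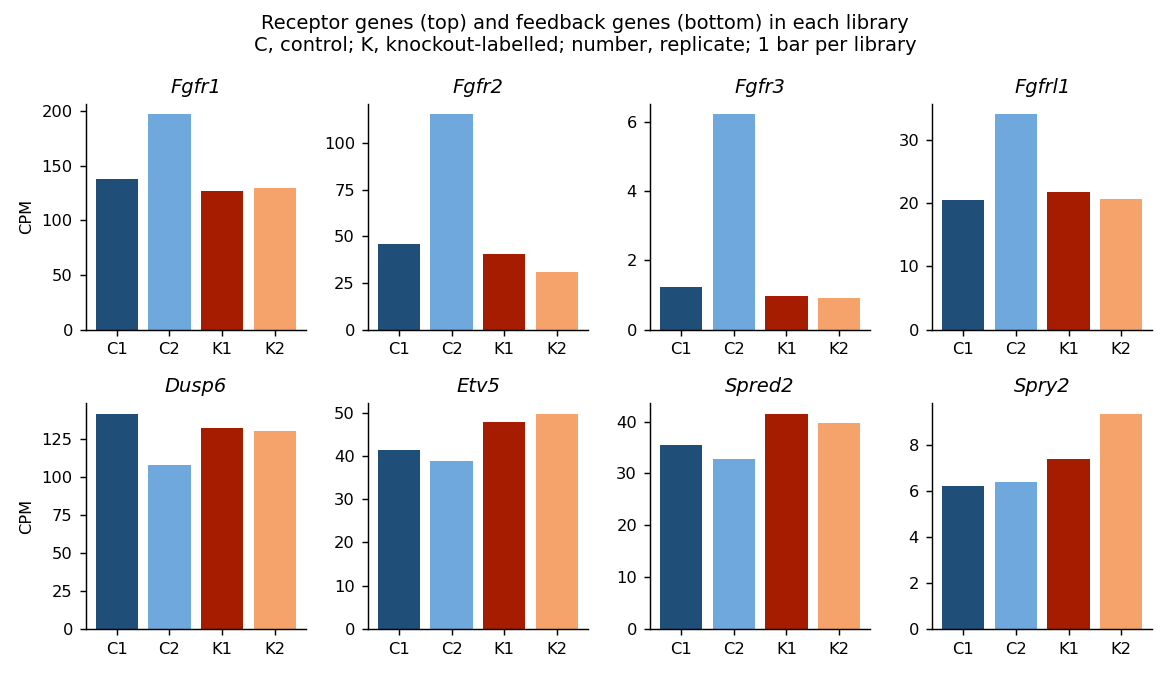
Level in CPM (linear axis from 0) of 4 receptor genes (top) and 4 feedback genes (bottom), 1 bar per library. In the receptor panels control replicate 2 stands above 3 similar bars. In the panels of Etv5, Spred2 and Spry2 both knockout-labelled bars are above both controls, and in that of Dusp6 they are not. Etv5, Spred2 and Spry2 are the only 3 of the 10 feedback genes whose groups did not overlap.

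Most tested markers of bone-forming and cartilage cells were, like the receptors, highest in control replicate 2. Of 11 osteoblast and osteocyte markers 9 had reads, Mepe and Sost being at 0. Control replicate 2 was the highest library for 6 of the 7 tested, against 27.2% of all tested genes. The summed level of these markers was 12789 and 17468 CPM among controls against 13104 and 14801 CPM in the knockout-labelled libraries, most of it Col1a1. Ibsp, a bone matrix sialoprotein, had 11.5 and 51.5 CPM among controls against 6.85 and 7.49 CPM in the others, so that, as for Fgfr3, control replicate 2 stood far above the other 3 libraries. Of 6 chondrocyte markers all 6 had reads, with sums of 57.4 and 115.9 CPM among controls against 84.3 and 64.0 CPM in the knockout-labelled libraries, and control replicate 2 was the highest for 4 of 5 tested. Sox9, the transcription factor of the cartilage lineage, had 8.17 and 24.7 CPM among controls against 6.91 and 6.45 CPM in the others. Col2a1, most of the chondrocyte sum, had 44.4 and 75.0 CPM among controls against 70.0 and 49.6 CPM in the others. Acan was lowest in control replicate 2, at 1.44 and 1.11 CPM among controls against 1.26 and 3.57 CPM in the others. The marrow stromal sum given above was also highest in control replicate 2, though control replicate 2 was the highest library for only 5 of its 11 markers. Pdgfra, a stromal growth factor receptor, had 33.0 and 102.1 CPM among controls against 48.8 and 40.2 CPM in the others, whereas Vcam1, a stromal adhesion molecule, had 181.1 and 115.3 CPM among controls against 203.1 and 150.8 CPM in the others. The summed level of the 6 adipocyte markers, most of it Lpl, was lowest in control replicate 2, at 1709 and 798.3 CPM among controls against 1434 and 1886 CPM in the knockout-labelled libraries. Lpl, Fabp4 and Pparg were lowest there, while Cebpa, Adipoq and Plin1 were higher there than in control replicate 1. The part of these cell types in the receptor values was not tested.

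**Figure D3:**
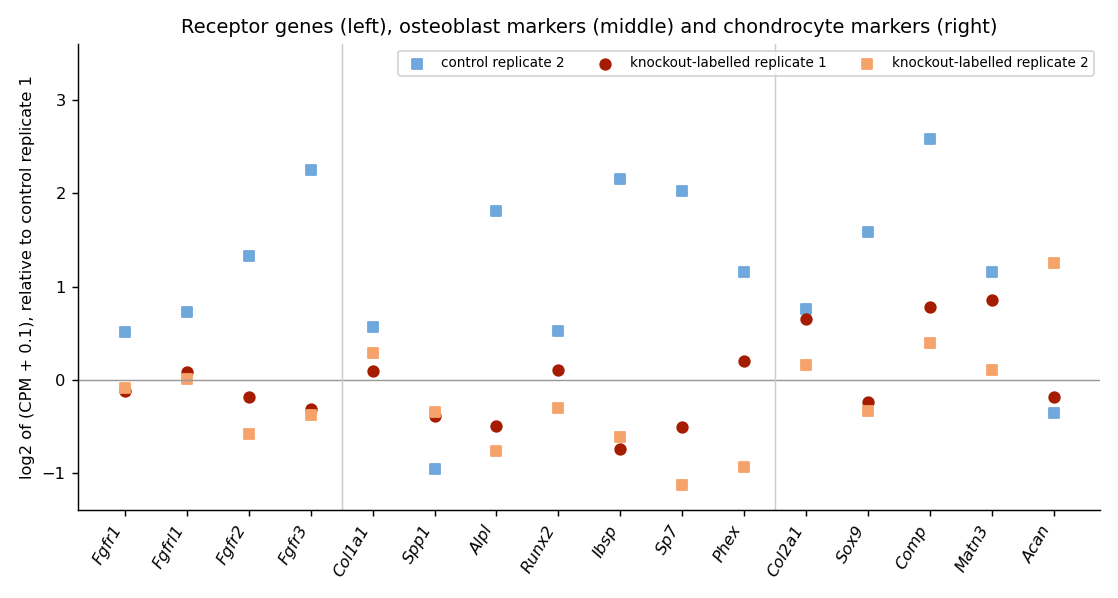
log2 of CPM + 0.1 relative to control replicate 1 (the line at 0) for the 4 tested receptor genes, the 7 tested osteoblast markers and the 5 tested chondrocyte markers; each point is 1 library. Control replicate 2 is the top point for all 4 receptors, 6 of 7 osteoblast markers (Spp1 is the exception) and 4 of 5 chondrocyte markers (Acan is the exception).

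The co-receptors of the endocrine FGFs were at the limit of detection. Kl, the Klotho protein that FGF23 needs, had 0 counts in all 4 libraries, and Klb, the partner of FGF15 and FGF21, had 0 to 2. The carrier proteins release FGFs from heparan sulfate in the matrix. Fgfbp1 had 0 counts in all 4 libraries, and Fgfbp3 had 1.55 and 1.79 CPM among controls against 1.26 and 1.61 CPM in the knockout-labelled libraries (log2 fold change -0.22, SE 0.47, edgeR adjusted p = 1). The groups of Fgfbp3 overlapped.

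The docking adaptor Frs2 had 96.3 and 96.1 CPM among controls against 112.2 and 90.0 CPM in the knockout-labelled libraries. The controls lay between the other 2 libraries. Its log2 fold change was 0.07 (SE 0.20, edgeR adjusted p = 1), with a 95% interval of -0.39 to 0.54. Frs3, the related adaptor, was far lower, at 1.55 and 3.37 CPM among controls against 2.97 and 2.65 CPM in the knockout-labelled libraries. Its log2 fold change was 0.19 (SE 0.48, edgeR adjusted p = 1), 0.90 within replicate 1 and -0.34 within replicate 2. Frs3 shares 509 exonic bases with Frs3os on the opposite strand, which had 0 to 9 counts a library, and the library kit does not mark strand.

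The feedback and response genes held 9 of 10 members at higher values in the knockout-labelled libraries, by small amounts, with a median log2 fold change of 0.24. The median was 0.21 within replicate 1 and 0.27 within replicate 2. In each, 7 of 10 members were higher, where 7059 and 7385 of the 14963 tested genes were. The same direction held in both replicates for 4 of the 10, and for 7083 of the 14963 tested genes. The groups did not overlap, with the knockout-labelled libraries higher, for Etv5, Spred2 and Spry2, 3 of 10 members where 10.8% of all tested genes were.

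Etv5, an ETS transcription factor induced by FGF signals, had 41.4 and 38.7 CPM among controls against 47.8 and 49.7 CPM in the knockout-labelled libraries. Its log2 fold change was 0.28 (SE 0.20, edgeR adjusted p = 1), 0.21 within replicate 1 and 0.36 within replicate 2. Its close relative Etv4 had 4.22 and 5.27 CPM among controls against 4.05 and 7.14 CPM in the knockout-labelled libraries, which overlapped (log2 fold change 0.24, SE 0.39).

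Spred2, an inhibitor of Ras signalling, had 35.6 and 32.8 CPM among controls against 41.5 and 39.8 CPM in the knockout-labelled libraries. The change was 0.25 on the log2 scale (SE 0.21, edgeR adjusted p = 1), 0.22 within replicate 1 and 0.28 within replicate 2. Spry2, a Sprouty inhibitor of receptor tyrosine kinase signals, had 6.19 and 6.37 CPM among controls against 7.37 and 9.33 CPM in the knockout-labelled libraries. On the log2 scale the change was 0.41 (SE 0.30, edgeR adjusted p = 1), 0.25 within replicate 1 and 0.54 within replicate 2. The 95% intervals of these 3 genes included 0, from -0.19 to 0.76 for Etv5, from -0.24 to 0.74 for Spred2 and from -0.30 to 1.12 for Spry2.

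Dusp6, the cytosolic phosphatase of ERK and the highest member of all per length, had 45.1 and 34.5 RPKM in controls and 42.1 and 41.5 RPKM in the knockout-labelled libraries. The groups overlapped, and control replicate 2, the library with the highest receptor levels, had the lowest Dusp6 level. The log2 fold change was 0.07 (SE 0.21, edgeR adjusted p = 1), with a 95% interval of -0.42 to 0.56. Spred1 had 141.3 and 118.0 CPM among controls against 155.8 and 109.2 CPM in the knockout-labelled libraries. Both replicates 2 were the lower of their group (log2 fold change 0.03, SE 0.24, edgeR adjusted p = 1).

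Spry1 was the one feedback gene with a negative log2 fold change, -0.07 (SE 0.27, edgeR adjusted p = 1). It had 30.1 and 47.8 CPM among controls against 37.9 and 36.5 CPM in the knockout-labelled libraries, and so shared its highest library, control replicate 2, with the receptors. It was 0.33 within replicate 1 and -0.39 within replicate 2. Spry4 had 17.1 and 13.4 CPM among controls against 16.4 and 20.6 CPM in the knockout-labelled libraries, with log2 ratios of -0.06 and 0.62 within replicates 1 and 2. Spred3 had 14.7 and 17.5 CPM among controls against 17.4 and 18.1 CPM in the others (log2 fold change 0.14, SE 0.25). Spry3, placed on an unlocalised scaffold, had 9 to 19 counts a library (log2 fold change 0.47, SE 0.60). Of the 4 Sprouty genes, Spry1 had the highest level per length in every library and Spry3 the lowest.

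**Figure D4:**
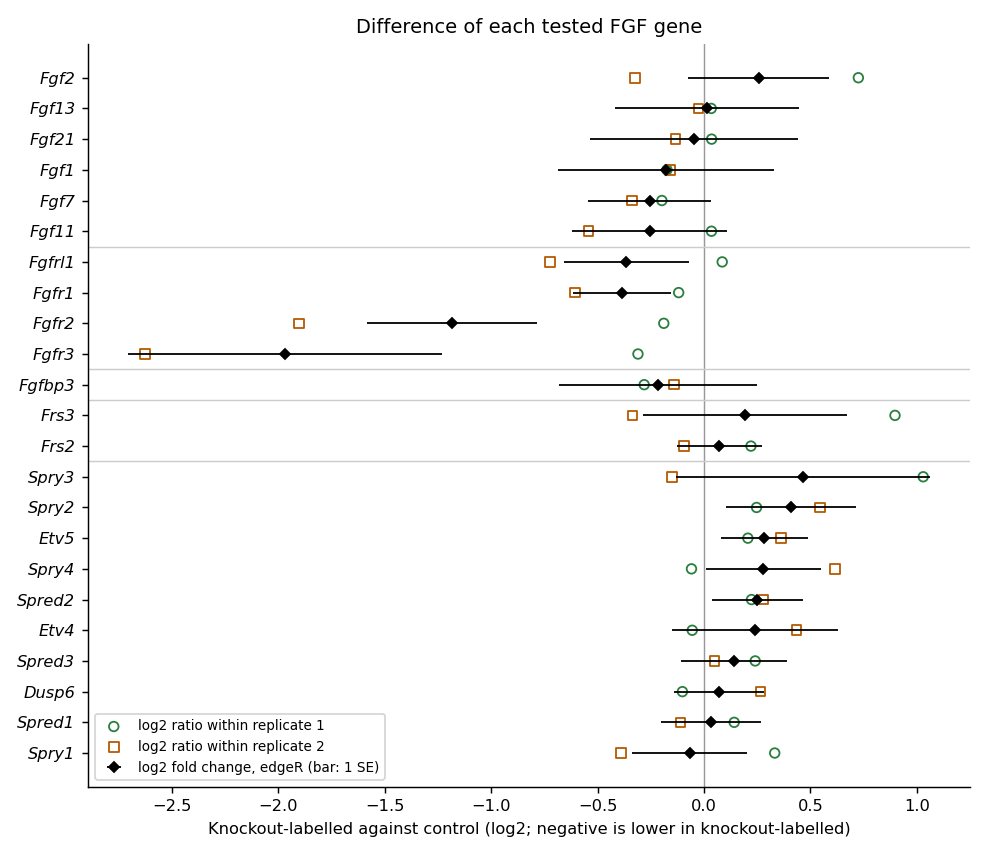
log2 fold change of the 23 tested FGF genes, knockout-labelled against control (diamonds, bars of 1 SE), with the log2 ratio within replicate 1 (circles) and within replicate 2 (squares); grey lines part ligands, receptors, Fgfbp3, adaptors and feedback genes. For Fgfr2 and Fgfr3 the squares lie near -1.90 and -2.63 and the circles near -0.19 and -0.31, while most feedback genes lie between 0 and 0.5.

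Other genes of the pathway were taken from a list of 63, of which 62 were matched and 58 tested. None passed in either direction by edgeR's quasi-likelihood test at an adjusted p of 0.05 (0 higher, 0 lower), and 0 had an unadjusted p under 0.05. By DESeq2 0 passed as well. Their values were higher for 31 and lower for 27, where 48.8% and 51.2% of all tested genes were, with a median log2 fold change of 0.03. The 21 adaptors and kinases between receptor and ERK (13 higher, 8 lower, median 0.04) included Gab1 (0.10, SE 0.20) among the higher and Braf (-0.13, SE 0.22) and Ksr1 (-0.19, SE 0.33) among the lower, all log2 fold changes.

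Other ERK feedback and target genes had 8 of 14 tested members at higher values (median log2 fold change 0.08). Il17rd, the Sef inhibitor of FGF receptors, had 9.98 and 15.7 CPM among controls against 8.39 and 8.70 CPM in the knockout-labelled libraries, again with control replicate 2 highest (log2 fold change -0.59, SE 0.32, edgeR adjusted p = 1). Flrt3, a membrane protein that binds FGF receptors, had a log2 fold change of -0.49 (SE 0.32). Dusp4, a nuclear ERK phosphatase, had 8.76 and 7.11 CPM among controls against 8.45 and 15.2 CPM in the others (log2 fold change 0.58, SE 0.35), and Fosl1, an ERK-induced AP-1 subunit, a log2 fold change of 0.48 (SE 0.32). For both, knockout-labelled replicate 2 was the highest library.

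Heparan sulfate genes, which supply the co-receptor sugar of FGF binding, had 8 of 19 tested members higher and 11 lower (median log2 fold change -0.04). Control replicate 2 was the highest library for 10 of them, where it was for 27.2% of all tested genes. Sdc2, a syndecan core protein, had 427.2 and 359.2 CPM among controls against 344.9 and 222.4 CPM in the knockout-labelled libraries (log2 fold change -0.47, SE 0.27, edgeR adjusted p = 1). The sulfotransferase gene Hs6st2 had a log2 fold change of -0.49 (SE 0.35), while Ndst1, another sulfotransferase gene, and the syndecan gene Sdc4 had 0.25 (SE 0.21) and 0.24 (SE 0.21). Of the genes that process or restrain FGF23 in bone, 4 were tested. Phex, an osteocyte endopeptidase gene, had 10 and 25 counts in controls and 11 and 4 in the knockout-labelled libraries (log2 fold change -1.10, SE 0.75). Fam20c, the kinase that phosphorylates FGF23, had 59.2 and 51.1 CPM among controls against 50.8 and 113.3 CPM in the others (log2 fold change 0.57, SE 0.35), Enpp1 a log2 fold change of 0.09 (SE 0.20) and Galnt3 -0.01 (SE 0.35).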

How the data were processed

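RNA from 4 libraries of marrow mesenchymal stem cells was compared, 2 per group, with group and replicate number taken from the titles. The deposited values are unnormalized read counts, 1 per gene and library, beside the exon length of each gene. Trimmomatic, HISAT2, featureCounts and mm10 are named in the submitters' processing notes, and versions and annotation release are not given in the sources used here. Libraries from the TruSeq v2 kit carry no strand mark, so reads of overlapping genes cannot be told apart. Coordinates are the extremes of the exons in the table. Promoter sequences are those of RefSeq on GRCm38.p6.

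The deposited counts went unchanged into edgeR 4.0.16 under R 4.3.3 (filterByExpr, TMM, quasi-likelihood F-test, group as the sole term, Benjamini-Hochberg adjustment over all 14963 genes at 0.05). SE is the absolute log2 fold change over the square root of F. CPM and RPKM used TMM-scaled library sizes, and log2 ratios of single libraries used CPM + 0.1. The test was also run on simulated data with known changes larger than that of any member, and that run is not used as support here. Alternatives used DESeq2 1.42.0, limma 3.58.1 (voom), other scalings and filters, a replicate block and leaving out each library. An exact two-sided permutation test of 2 against 2 cannot go below p = 0.333, so p-values rest on the spread shared across genes. The series' design gives the replicates of a group as separate mice.

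All members were accounted for. Those with enough reads to be tested were named with values, and so were, from each partner list, the 2 genes of lowest p on either side, except 1 gene that is not reported here. Pdgfra, Vcam1, Ibsp, Sox9, Col1a1, Col2a1, Spp1, Acan, Lyz2, Ighm, Igkc, Cd79b, Nudt6, Ctbp2 and Frs3os were chosen after their values were seen. Members and lists were chosen with earlier results of these data known.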

Additional observations from a re-analysis of the deposited data

How the results depend on the processing

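The count of 0 FGF members called held under median-of-ratios scaling, total counts alone, both other filters, DESeq2, limma-voom and the replicate block, and was 0 to 2 when a library was left out. The 2, Fgfr2 and Fgfr3, were called without control replicate 1, where control replicate 2 is the lone control and is assumed to vary like the other group. Over all genes, DESeq2 called 23 and the fits without a library 0 to 183. The upper end of that range, out of 14963 genes tested, came from the fit without control replicate 1. That is the same fit that called Fgfr2 and Fgfr3. Partner genes stayed at 0 in every alternative. No member changed direction under the scalings, filters, tools or block (the 5 CPM filter kept 16 of 23).

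The replicate numbers are not stated to mark shared litters or days. They did go with the Xist reads of both replicates 1 and the Ddx3y reads of both replicates 2. Deviations of the 2 libraries with the same number correlated across genes at 0.245, and with the replicate block 0 members were called and the median was 0.02. With the block the unadjusted edgeR p-values of Fgfr2 and Fgfr3 were 0.0630 and 0.0724 (0.0187 and 0.0290 without it).

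When a library was left out, the median log2 fold change of members ran from -0.10 to 0.12, and these log2 fold changes changed sign: Fgf7 from -0.62 to 0.054, Fgf21 from -0.22 to 0.12, Fgf1 from -0.41 to 0.052, Fgf2 from -0.22 to 0.63 and Fgf13 from -0.43 to 0.41. Likewise Fgfrl1 ran from -0.69 to 0.057, Frs2 from -0.10 to 0.24, Frs3 from -0.26 to 0.87, Spred1 from -0.25 to 0.28, Spry1 from -0.36 to 0.32, Dusp6 from -0.10 to 0.28 and Etv4 from -0.21 to 0.59. Fgfr1, Fgfr2 and Fgfr3 stayed negative, and Etv5, Spred2 and Spry2 positive, without any one library. The groups of these members did not overlap, so their sign was bound to hold and this is no further support. Fgf11 and Fgfbp3 also stayed negative, and Spred3, Spry3 and Spry4 positive. The cause of the sign changes was not tested. With 2 libraries a group, members under 30 counts a library (Fgf1, Fgf21, Spry3) had SEs of 0.49 to 0.60.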
